A study of Homo sapiens with 24 samples.

Results

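The genes described here are 39 genes of the passage from G1 into S phase and of DNA replication, out of 22311 genes read from the arrays. They were taken as a list of symbols: G1 cyclins, their kinases and the phosphatase CDC25A, E2F factors and RBL1, origin licensing and helicase subunits, and genes of the replication fork, nucleotide supply and UHRF1. Each gene's value on an array was the median of the probe sets that carry that one symbol in the platform annotation, on the log2 scale of the deposited values. A gene was tested where its mean over the 24 arrays reached the median of all gene values, 6.02, and 38 of the 39 passed. CCND2, a D-type cyclin, averaged 3.7 and was not tested.

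AC16 is a dividing human line made by fusing adult ventricular cells with virus-transformed fibroblasts, and all groups had a 2 h pulse of 100 nM dexamethasone, a glucocorticoid that aligns the clocks of cultured cells. Digoxin, a cardiac glycoside that blocks the sodium potassium pump, was given at 0.5 µM or 5 µM. Cells on digoxin or vehicle were collected at T4 and T20, and untreated cells at T0 and T16, with 3 arrays in each of the 8 groups. The sample labels put both treated collections 4 h after treatment, whereas the growth protocol counts 4, 16 and 20 h from treatment, so how long T20 cells were exposed is not settled. T4 vehicle against T0 and T20 vehicle against T16 therefore differ in time and in vehicle at once. Whether the 3 samples of a group came from separate cultures is not in the labels, and the p-values therefore speak of the spread among these arrays alone, which may be technical.

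Entry into S phase is set by D-type cyclins with CDK4 and CDK6, and by E-type cyclins with CDK2, which release E2F factors from the retinoblastoma family. E2F1, E2F2 and E2F3 activate genes of replication, while E2F7 and E2F8 repress them and are themselves E2F targets. Origins are licensed when ORC, CDC6 and CDT1 load the MCM2 to MCM7 ring, which becomes the active helicase with CDC45 and GINS. The fork then needs primase, polymerases, the PCNA clamp with its RFC loader, and nucleotides made by ribonucleotide reductase and thymidylate synthase.

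Of the markers fixed for this line, 0 of 14 cardiomyocyte genes reached the level for testing, against 10 of 10 fibroblast genes, 3 of 4 smooth muscle genes, 0 of the 3 endothelial genes and 0 of the 2 leukocyte genes on the array, so the defining markers of the labelled cell type, cardiomyocytes, were absent at that level. Arrays of a group correlated at 0.979 to 0.988 over the 11071 genes tested, as a description, and arrays of different groups at 0.961 to 0.986. Poly-A control RNA, which is added to a sample before labelling, read 0.72 higher on the 5 µM T20 arrays than on the T20 vehicle arrays, and hybridization controls read 0.32 higher (log2, as deposited). The poly-A means were 12.34, 12.12 and 11.92 with 5 µM at T20. Those of T20 vehicle, 11.44, 11.29 and 11.47, were the lowest of the series, and lay 0.51 below untreated T16. Poly-A scaled results against T20 vehicle and of T20 vehicle against T16 share these vehicle arrays. Differences below are relative to the other genes of an array after quantile normalization. Fewer cells in a phase of the cycle and less RNA per cell cannot be told apart in such bulk samples.

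Promoters of 5 genes called in a digoxin comparison are shown as 250 bases before the start site, because 4 of them were higher with digoxin and PRIM1 was lower. They are RefSeq sequences on build GRCh38.p14: CDC25A chr3:48188418-48188667 (minus strand), E2F1 chr20:33686386-33686635 (minus strand), E2F3 chr6:20401629-20401878 (plus strand), E2F7 chr12:77065570-77065819 (minus strand) and PRIM1 chr12:56752324-56752573 (minus strand). Capitals mark the E2F letters (TTTCCCGC, TTTCGCGC, TTTGCCGC or TTTGGCGC) and the CCAAT box, on either strand, and each sequence runs 5′ to 3′ in the direction of the gene.
CDC25A: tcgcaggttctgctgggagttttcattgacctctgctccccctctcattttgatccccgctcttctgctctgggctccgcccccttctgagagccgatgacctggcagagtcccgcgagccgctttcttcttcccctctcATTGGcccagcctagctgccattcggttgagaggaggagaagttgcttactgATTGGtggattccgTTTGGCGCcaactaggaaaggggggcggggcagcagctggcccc
E2F1: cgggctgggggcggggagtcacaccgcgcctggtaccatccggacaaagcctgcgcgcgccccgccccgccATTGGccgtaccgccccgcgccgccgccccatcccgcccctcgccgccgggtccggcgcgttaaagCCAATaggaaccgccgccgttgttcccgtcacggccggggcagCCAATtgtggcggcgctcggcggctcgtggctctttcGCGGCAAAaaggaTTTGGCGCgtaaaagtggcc
E2F3: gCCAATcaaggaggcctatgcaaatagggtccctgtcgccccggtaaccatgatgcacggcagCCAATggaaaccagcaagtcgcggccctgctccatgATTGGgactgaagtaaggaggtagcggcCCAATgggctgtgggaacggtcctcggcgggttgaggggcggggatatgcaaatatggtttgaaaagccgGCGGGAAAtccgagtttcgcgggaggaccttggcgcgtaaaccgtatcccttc
E2F7: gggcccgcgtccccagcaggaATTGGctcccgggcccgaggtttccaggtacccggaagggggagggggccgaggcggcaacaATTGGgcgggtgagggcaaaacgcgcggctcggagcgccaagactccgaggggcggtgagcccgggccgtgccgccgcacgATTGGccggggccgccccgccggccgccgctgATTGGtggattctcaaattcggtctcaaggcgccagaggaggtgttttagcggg
PRIM1: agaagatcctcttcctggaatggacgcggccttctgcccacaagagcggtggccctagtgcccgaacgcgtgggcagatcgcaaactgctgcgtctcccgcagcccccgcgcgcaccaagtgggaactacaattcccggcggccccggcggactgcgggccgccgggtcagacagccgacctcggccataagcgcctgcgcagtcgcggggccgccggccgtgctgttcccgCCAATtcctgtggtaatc
An E2F match lay in the windows shown of CDC25A, E2F1 and E2F3 and in none of the windows shown of E2F7 and PRIM1, while all 5 held a CCAAT box. These are the first windows listed for each gene, and another E2F3 window held neither match. UHRF1, also called with digoxin, is not shown, and some but not all of its windows held both. In windows of 250 bases before to 50 after the start, the E2F letters were present for 20 of the 32 genes of the list with an entry (62.5%), against 3.99% of 27305 genes. CCAAT was present for 62.5% of the 32 and 39.7% of all genes, and the CHR letters TTTGAA for 6.25% and 18.2%. Matches on both strands counted, and E2F matches on opposite strands can overlap. These shares describe letters, not binding. No entry was used for CCND1, CCND2, CCNE2, CDK2, E2F8, MCM4 and MCM5.

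At T4, CDC25A, E2F1, E2F3, E2F8 and UHRF1 rose with 5 µM digoxin, by 0.77 to 1.52 on the log2 scale, PRIM1 fell by 0.91, and the rest of the 38 genes did not pass. These 6 were 15.8% of the 38, beside 7.96% of all 11071 genes tested (adjusted p under 0.05, either direction). At 0.5 µM, CDC25A and E2F1 rose and no gene of the list fell, 5.26% of the 38 beside 2.67% of all genes. At T20, CDC25A, E2F3, E2F7 and E2F8 were higher with 5 µM digoxin and none was lower, 10.5% of the 38 beside 12.3% of all genes, so the share called there was no higher than among genes at large. With 0.5 µM at T20 none passed, beside 3.69% of all genes, although 4 genes had an unadjusted p under 0.05 in limma. The median difference of the 38 was 0.11 at 5 µM T4, 0.09 at 0.5 µM T4, 0.08 at 5 µM T20 and 0.06 at 0.5 µM T20, beside 0.01 to 0.02 over all genes tested. Both doses at a time were set against the same 3 vehicle arrays.

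By direction, the shares of all genes called higher and lower were 3.51% and 4.44% at 5 µM T4, 1.45% and 1.23% at 0.5 µM T4, 6.28% and 6.01% at 5 µM T20, and 2.08% and 1.62% at 0.5 µM T20. Arrays of digoxin and vehicle did not overlap for 11 of the 38 genes at 5 µM T4, 8 at 0.5 µM T4, 9 at 5 µM T20 and 5 at 0.5 µM T20. Over all genes this held for 28.4%, 21.8%, 28.8% and 20.4% in the same order. A lack of overlap was thus about as common in the list as among all genes at T4, and less common in the list at T20.

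Combining probe sets by median polish in place of the median gave a median standard error of 0.134 against 0.257 and called more genes of the list: 9 higher and 2 lower at 5 µM T4, 6 and 2 at 0.5 µM T4, 8 and 4 at 5 µM T20, and 2 and 2 at 0.5 µM T20. The share of all genes called by that method was 23.4%, 10.9%, 27.8% and 11.4% in the same order. Scaling mattered most at 5 µM T20: with the poly-A controls as the common level, the median gene lay at -0.68, 1 gene of the list was higher (E2F3) and 24 were lower, where 1.32% of all genes were called higher and 51.6% lower. At 5 µM T4 the same scaling gave 4 higher (CDC25A, E2F1, E2F3 and E2F8) and 2 lower (PRIM1 and GINS3), with the median of all genes at -0.23 and 1.4% of all genes called higher and 9.15% lower.

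**Figure D1:**
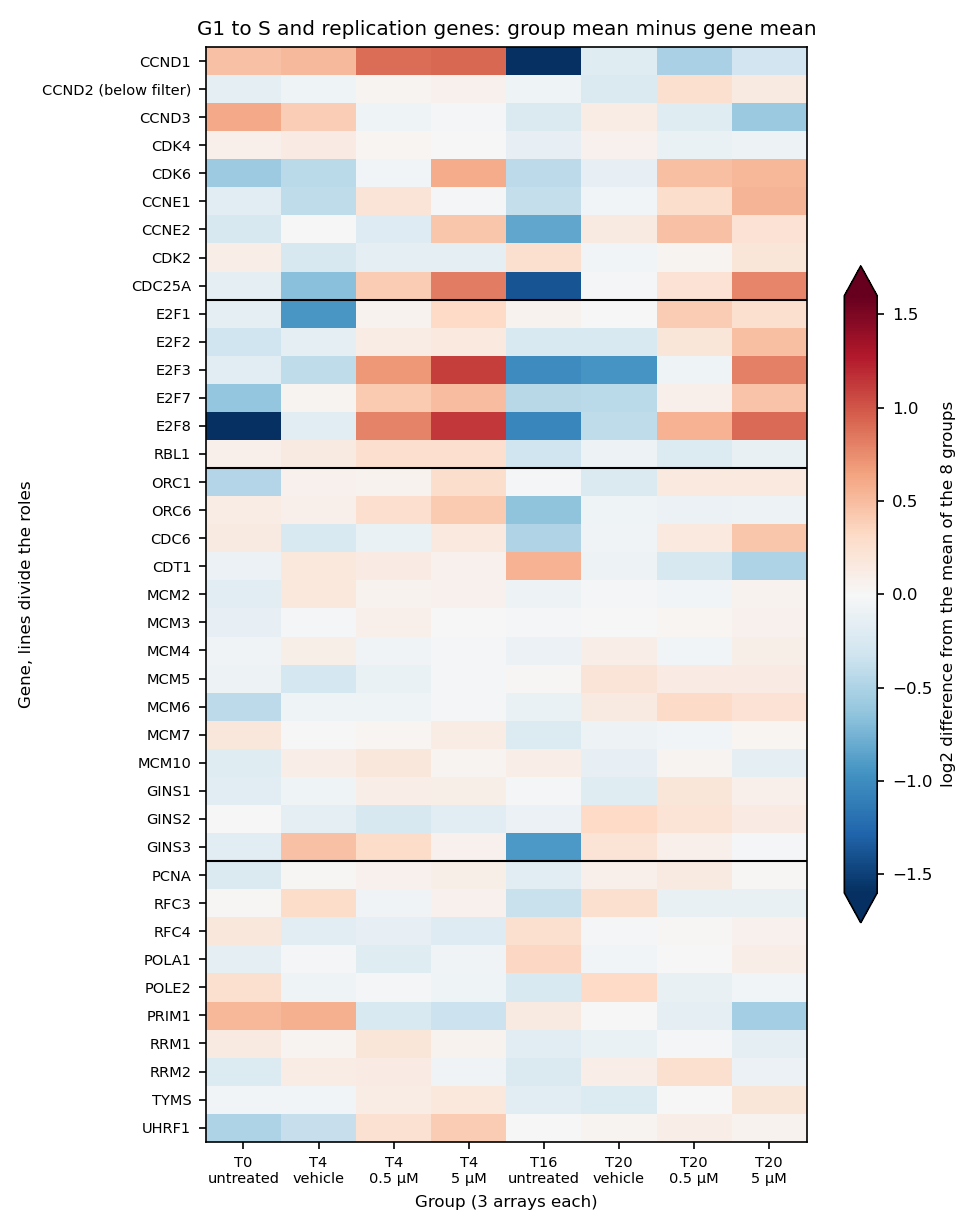
Mean log2 value of each of the 39 genes in each of the 8 groups of 3 arrays, as the difference from that gene's mean over the groups; red is higher, blue is lower, and colours saturate at 1.6. The rows of CDC25A, E2F3 and E2F8 are reddest under 5 µM digoxin, the T16 column is blue for CCND1, CDC25A, ORC6 and GINS3, and the group means of MCM2 to MCM7 span only 0.20 (MCM4) to 0.72 (MCM6) each.

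Among the G1 cyclins, kinases and CDC25A, only CDC25A passed in a digoxin comparison by the median of probe sets. CDC25A encodes a phosphatase that removes inhibitory phosphates from CDK2. At T4 it read 12.15, 12.13 and 12.20 with 0.5 µM digoxin and 12.70, 12.36 and 12.64 with 5 µM, against 11.17, 10.97 and 11.10 with vehicle. All 6 digoxin arrays lay above all 3 vehicle arrays, and the differences were 1.08 ± 0.15 (SE, adjusted p = 0.000438) and 1.49 ± 0.15 (adjusted p = 3.6e-06, limma). All 18 of its probe sets were higher at both doses, and both calls held under all 19 alternatives. At T20 it read 11.74, 12.03 and 12.16 with 0.5 µM and 12.61, 12.40 and 12.59 with 5 µM, against 11.65, 11.85 and 11.67 with vehicle. The 5 µM arrays again lay above all others, by 0.81 ± 0.15 (adjusted p = 0.00156), while the 0.5 µM arrays overlapped the vehicle arrays (0.26 ± 0.15, adjusted p = 0.439). With poly-A scaling the 5 µM T20 difference of CDC25A was 0.13 and did not pass (adjusted p = 0.565). Median polish gave 0.52 for 0.5 µM at T20, which passed (adjusted p = 0.00269).

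CDK6, a partner of D-type cyclins, read 11.45, 11.75 and 12.01 with 5 µM digoxin at T4, against 10.39, 10.88 and 10.86 with vehicle. The groups did not overlap, and the difference of 1.03 ± 0.32 lay at the threshold without passing it (adjusted p = 0.0502). By median polish CDK6 was called higher at 0.5 µM T4 (0.54), 5 µM T4 (0.87) and 5 µM T20 (0.61). CCND1, the main D-type cyclin of fibroblast-like cells, differed by 0.40 ± 0.48 at 5 µM T4 and -0.12 ± 0.48 at 5 µM T20, with 95% intervals of -0.59 to 1.40 and -1.12 to 0.88 that leave wide room in both directions. At 5 µM T4, 3 of its probe sets were higher and 8 lower, against the sign of the 0.40. CCNE1 and CCNE2, the E-type cyclins, differed by 0.38 and 0.44 at 5 µM T4 and by 0.59 and 0.09 at 5 µM T20, and neither passed. Median polish called CCNE2 higher at 5 µM T4 (0.37, adjusted p = 0.000994), and poly-A scaling called it lower at 5 µM T20 (-0.62, adjusted p = 0.0431). CDK2, which they activate, differed by 0.08 to 0.23 over the 4 digoxin comparisons, and CDK4 by -0.17 to -0.10. CCND3 differed by -0.71 to -0.32 over the same 4 comparisons and did not pass. At 5 µM T20 median polish called CDK2 higher (0.34) and CCND3 lower (-0.38), and poly-A scaling called CDK4 (-0.87) and CCND3 (-1.41) lower.

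Of the 6 E2F and RBL1 genes, 3 rose with 5 µM digoxin at T4, beside 3.51% of all genes, and 3 at T20, beside 6.28%, with a median difference of 0.85 and 0.81. E2F3, an activating factor, read 11.16, 11.38 and 11.14 with 0.5 µM and 11.71, 11.56 and 11.69 with 5 µM at T4, against 10.47, 9.77 and 10.15 with vehicle. Every digoxin array was above every vehicle array; the difference was 1.52 ± 0.32 at 5 µM (adjusted p = 0.00438), and the 1.09 ± 0.32 at 0.5 µM did not pass (adjusted p = 0.0729). At T20 E2F3 read 11.06, 9.56 and 10.79 with 0.5 µM and 11.40, 11.06 and 11.60 with 5 µM, against 9.63, 9.56 and 9.61 with vehicle. One 0.5 µM array lay at the vehicle level and the others well above it, so that this dose did not pass (0.87 ± 0.32, adjusted p = 0.147), whereas 5 µM did (1.75 ± 0.32, adjusted p = 0.000854). Both 5 µM calls of E2F3 held under all 19 alternatives, poly-A scaling included (1.29 at T4 and 1.10 at T20). By median polish the 0.5 µM difference of E2F3 at T4 passed as well (0.94, adjusted p = 0.00202).

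E2F1, the other activating factor that passed, did so at T4 and not at T20. At T4 it read 12.35, 12.30 and 12.76 with 0.5 µM and 12.91, 12.66 and 12.64 with 5 µM, against 11.53, 11.63 and 11.31 with vehicle, with no overlap. The differences were 0.98 ± 0.21 (adjusted p = 0.0105) and 1.25 ± 0.21 (adjusted p = 0.000578), and all 9 probe sets were higher at both doses. The 0.5 µM call was lost without vehicle replicate 3 (0.89, adjusted p = 0.0599) or without 0.5 µM replicate 3 (0.84, adjusted p = 0.0729). It was also lost with only the groups compared in the fit (limma, adjusted p = 0.0671). The T4 vehicle arrays held the lowest E2F1 values of the series: untreated T0 arrays read 12.04, 12.43 and 12.30. At T20 E2F1 read 12.57, 12.99 and 12.93 with 0.5 µM and 12.49, 12.83 and 12.68 with 5 µM, against 12.69, 11.94 and 12.61 with vehicle. The T20 groups overlapped, and neither dose passed (0.42 and 0.25 ± 0.21). E2F2 differed by 0.26 to 0.72 in the 4 digoxin comparisons, with standard errors of 0.38, and never passed.

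E2F8 and E2F7, the repressing members of the family, were also higher with digoxin. E2F8 read 12.24, 12.64 and 11.80 with 0.5 µM and 12.59, 12.70 and 12.43 with 5 µM at T4, against 11.23, 11.39 and 11.18 with vehicle. At T20 it read 12.28, 11.92 and 11.76 with 0.5 µM and 12.22, 12.21 and 12.61 with 5 µM, against 11.68, 10.89 and 10.57 with vehicle. Digoxin arrays lay above vehicle arrays at both times and doses. The 5 µM differences passed, 1.31 ± 0.31 at T4 (adjusted p = 0.0122) and 1.30 ± 0.31 at T20 (adjusted p = 0.00877), and the 0.5 µM differences of 0.97 and 0.94 did not (adjusted p = 0.116 and 0.11). The T20 call of E2F8 was lost without vehicle replicate 3 (1.07, adjusted p = 0.0536) and with poly-A scaling (0.64, adjusted p = 0.108). Median polish called E2F8 higher at 0.5 µM too, at T4 (0.91) and at T20 (0.64).

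E2F7 read 13.64, 13.38 and 13.55 with 0.5 µM and 14.07, 13.86 and 13.75 with 5 µM at T20, against 13.00, 12.74 and 13.26 with vehicle. The groups did not overlap; 5 µM passed (0.89 ± 0.16, adjusted p = 0.000815) and 0.5 µM did not (0.52 ± 0.16, adjusted p = 0.079). At T4 it read 13.68, 13.87 and 14.02 with 0.5 µM and 13.91, 13.97 and 13.90 with 5 µM, against 13.39, 13.69 and 13.35 with vehicle, and neither dose passed (0.38 and 0.45 ± 0.16). Median polish called E2F7 higher at both doses of T4 (0.40 and 0.47). With poly-A scaling its 5 µM T20 difference was 0.19 and did not pass (adjusted p = 0.299). Fitting only the groups compared also lost that call (limma, adjusted p = 0.0514). RBL1, a pocket protein that holds E2F factors in check, differed by -0.14 to 0.12 over the digoxin comparisons, and poly-A scaling called it lower at 5 µM T20 (-0.77).

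**Figure D2:**
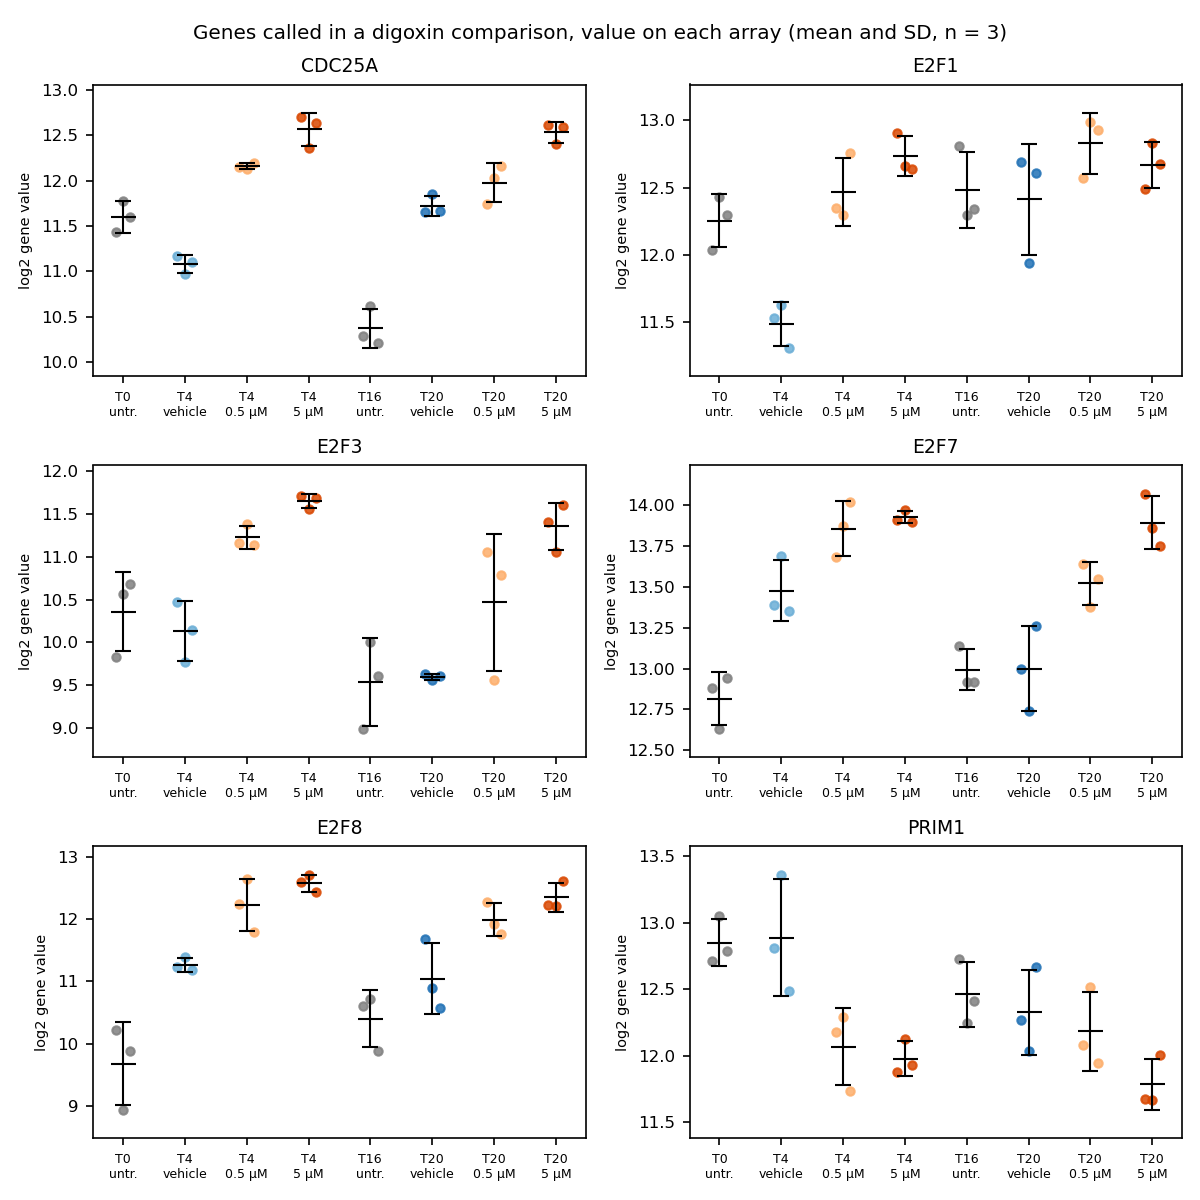
Log2 gene value of 6 genes called in a digoxin comparison on each of the 3 arrays (points) of the 8 groups, with the mean and SD as bars. Digoxin points sit above the vehicle points of T4 for CDC25A, E2F1, E2F3 and E2F8, and below them for PRIM1; at T20 the 5 µM points stand above vehicle for CDC25A, E2F3, E2F7 and E2F8.

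The 14 licensing and helicase genes gave no call in any digoxin comparison by the median of probe sets, with median differences of 0.00 to 0.04. For the 6 subunits of the MCM ring, differences from vehicle ran from -0.15 to 0.25 over both doses and times, and the 95% intervals from -0.52 to 0.63. MCM2 read 14.33, 13.99 and 13.66 with 5 µM digoxin at T4, against 14.10, 14.27 and 13.92 with vehicle. MCM4 read 16.91, 16.61 and 16.54 with 5 µM at T20, against 16.57, 16.92 and 16.60 with vehicle. Both sets of arrays overlapped. These directions depend on how the arrays are put on one scale: at 5 µM T20, poly-A scaling called all 6 lower, from -0.79 for MCM5 to -0.61 for MCM7, about as far as the median gene, while median polish called MCM6 (0.26) and MCM7 (0.23) higher, and MCM7 also at 5 µM T4 (0.21).

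Among the loading factors, CDC6 differed by 0.40 ± 0.20 at 5 µM T4 and 0.49 ± 0.20 at 5 µM T20, and CDT1 by -0.10 ± 0.26 and -0.42 ± 0.26. Neither passed (adjusted p = 0.248 and 0.114 for CDC6, and 0.88 and 0.318 for CDT1). ORC1 and ORC6, subunits of the origin recognition complex, differed by -0.03 to 0.39 over the 4 digoxin comparisons. GINS3, a subunit of the helicase activator GINS, read 13.09, 13.17 and 12.78 with 5 µM at T4, against 13.35, 13.46 and 13.44 with vehicle. All 3 digoxin arrays were lower, but the difference of -0.40 ± 0.14 did not pass (adjusted p = 0.0946). GINS1, GINS2 and MCM10, which binds the active helicase, did not pass either, with differences of -0.20 to 0.38. Median polish called ORC6 higher at 5 µM T4 (0.27, adjusted p = 0.0466), CDT1 (-0.47) and GINS3 (-0.32) lower at 5 µM T20, and MCM10 lower at 0.5 µM T4 (-0.27, adjusted p = 0.0232), where the median of its probe sets gave 0.08. Poly-A scaling called CDT1, ORC6, GINS2, GINS3 and MCM10 lower at 5 µM T20 (-1.11 to -0.73).

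PRIM1, the catalytic subunit of the primase that starts each new DNA strand, was the one gene of the list that fell with digoxin by the median of probe sets. It read 12.18, 12.29 and 11.74 with 0.5 µM and 11.88, 12.13 and 11.93 with 5 µM at T4, against 12.81, 13.36 and 12.49 with vehicle. Digoxin arrays were below all vehicle arrays, by 0.91 at 5 µM (log2 difference -0.91 ± 0.23, adjusted p = 0.0164), and the -0.82 ± 0.23 at 0.5 µM did not pass (adjusted p = 0.0583). The 5 µM call was lost without vehicle replicate 2 (-0.67, adjusted p = 0.1), without 5 µM replicate 1 (-0.86, adjusted p = 0.0646) or without 5 µM replicate 3 (-0.88, adjusted p = 0.0572). It was also lost with only the groups compared in the fit (limma, adjusted p = 0.0762). At T20 PRIM1 read 12.08, 12.52 and 11.95 with 0.5 µM and 11.68, 11.67 and 12.01 with 5 µM, against 12.27, 12.04 and 12.67 with vehicle. The 5 µM arrays lay just below the vehicle arrays, and neither dose passed (-0.14 and -0.54 ± 0.23). Each of its 15 probe sets was lower than vehicle at both T20 doses, and median polish called PRIM1 lower there (-0.70 at 0.5 µM, adjusted p = 0.000351, and -0.95 at 5 µM, adjusted p = 3.57e-06) and at T4 (-0.54 and -0.73).

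UHRF1, which recruits DNA methylation to newly copied DNA, read 14.68, 14.42 and 14.21 with 5 µM at T4, against 13.74, 13.49 and 13.76 with vehicle. The groups did not overlap and the difference of 0.77 ± 0.22 passed (adjusted p = 0.0364), but 10 of 19 alternatives lost the call. Leaving out any one of vehicle replicates 1, 2 and 3 or 5 µM replicates 1 and 2 was among them, at 0.81, 0.69, 0.82, 0.66 and 0.78 with adjusted p from 0.0679 to 0.145. With 0.5 µM at T4 UHRF1 read 14.18, 14.18 and 14.44, above vehicle by 0.60 ± 0.22 without passing (adjusted p = 0.179). At T20 its differences were 0.06 and 0.02, and poly-A scaling called the 5 µM one lower (-0.69).

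The other fork and nucleotide genes did not pass with digoxin by the median of probe sets. TYMS, thymidylate synthase, read 16.83, 16.94 and 16.85 with 5 µM at T20, against 16.24, 16.47 and 16.66 with vehicle, a difference of 0.42 ± 0.15 (adjusted p = 0.0802). POLE2, a subunit of the leading-strand polymerase, differed by -0.44 ± 0.19 at 0.5 µM T20 and -0.35 ± 0.19 at 5 µM T20. It was called lower at 5 µM T4 by median polish (-0.46, adjusted p = 0.0326) and at 0.5 µM T20 with poly-A scaling (-0.74, adjusted p = 0.04). RFC3 and RFC4, subunits of the clamp loader, differed by -0.37 to 0.10 over the 4 comparisons, and median polish called RFC3 lower at 0.5 µM T20 (-0.36, adjusted p = 0.0079). PCNA, the sliding clamp, differed by -0.07 to 0.09, and RRM1 and RRM2, the ribonucleotide reductase subunits, by -0.19 to 0.16. POLA1, the catalytic subunit of the polymerase that extends primers, differed by -0.16 to 0.15. Under poly-A scaling at 5 µM T20 the TYMS difference was -0.30 and did not pass. POLE2 (-1.03), RFC3 (-1.10), PCNA (-0.81), RRM1 (-0.76), RRM2 (-0.92), RFC4 (-0.62) and POLA1 (-0.55) were called lower, where the median gene lay at -0.68.

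**Figure D3:**
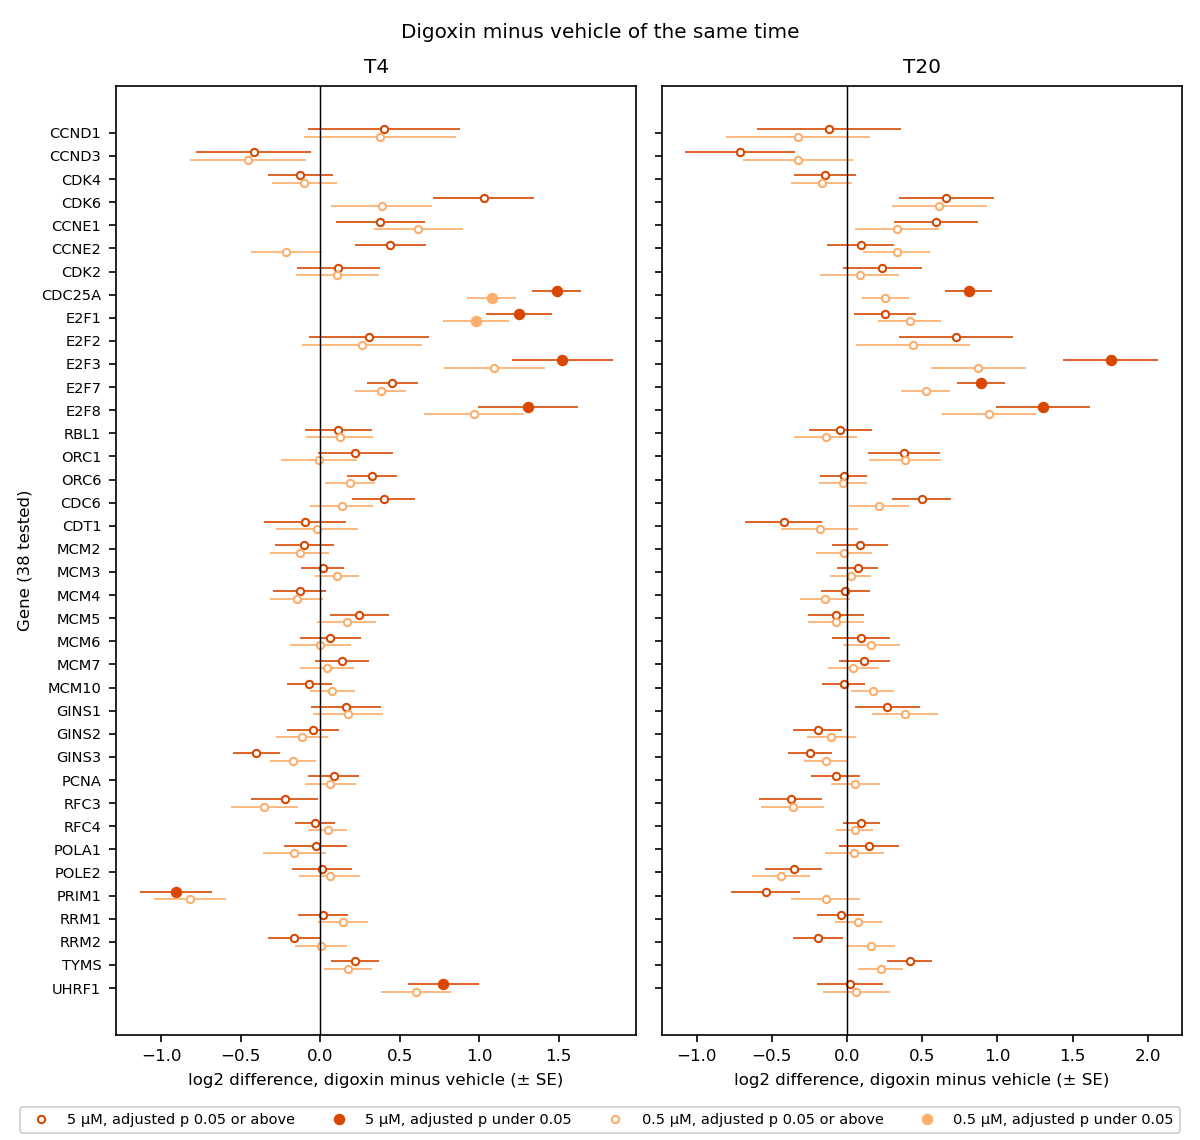
Log2 difference from vehicle of the same time for the 38 genes tested, with the SE as bars, at 5 µM (dark) and 0.5 µM (light); filled points have an adjusted p under 0.05. Filled points lie among CDC25A and the E2F genes in both panels, with PRIM1 (-0.91) and UHRF1 (0.77) added at T4, and the licensing and helicase genes lie between -0.42 and 0.49.

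No gene of the list passed between the doses. At T4, 5 µM minus 0.5 µM gave 0.41 ± 0.15 for CDC25A (95% interval 0.08 to 0.73, adjusted p = 0.47), 0.65 ± 0.22 for CCNE2 (0.19 to 1.12, adjusted p = 0.406) and 0.43 ± 0.32 for E2F3 (-0.23 to 1.09, adjusted p = 0.774). Over all genes, 0.0271% passed, all of them higher at the higher dose, and 2 genes of the list had an unadjusted p under 0.05 in limma. At T20 the same difference was 0.55 ± 0.15 for CDC25A (0.23 to 0.88, adjusted p = 0.151), 0.88 ± 0.32 for E2F3 (0.22 to 1.54, adjusted p = 0.256) and 0.37 ± 0.16 for E2F7 (0.04 to 0.70, adjusted p = 0.376), with 0.434% of all genes passing (0.262% higher and 0.172% lower) and 4 of the list under an unadjusted p of 0.05. The arrays of the doses did not overlap for 6 of the 38 genes at T4, beside 15.6% of all genes, and for 4 at T20, beside 14.9%. Median polish called E2F7 higher at the higher dose at T20 (0.42, adjusted p = 0.0126) and nothing else of the list.

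The difference in effect between T20 and T4 was tested for each dose, and 0 genes of the list passed, beside 0.135% of all genes at 5 µM (0.0723% higher and 0.0632% lower) and 0.00903% at 0.5 µM; 3 and 2 genes of the list had an unadjusted p under 0.05 in limma, and median polish also called 0. At 5 µM, the effect at T20 minus that at T4 was -0.998 ± 0.29 for E2F1 (95% interval -1.61 to -0.39, adjusted p = 0.264), -0.68 ± 0.22 for CDC25A (-1.14 to -0.22, adjusted p = 0.351) and -0.75 ± 0.32 for UHRF1 (-1.41 to -0.10, adjusted p = 0.557). E2F8 gave -0.005 (-0.93 to 0.92) and E2F3 0.23 (-0.70 to 1.16). With poly-A scaling the E2F1 difference passed (-1.46, adjusted p = 0.0469). At 0.5 µM it was -0.82 ± 0.22 for CDC25A (-1.28 to -0.37, adjusted p = 0.605) and -0.56 ± 0.29 for E2F1 (adjusted p = 0.967).

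Other genes of the pathway were counted over 4 lists that hold 61 tested genes. With 5 µM digoxin 1 rose and 2 fell at T4, and 3 rose and 7 fell at T20; with 0.5 µM, 2 fell at T4, and 2 rose and 3 fell at T20. These were 4.92% of the 61 beside 7.96% of all genes at 5 µM T4, 16.4% beside 12.3% at 5 µM T20, 3.28% beside 2.67% at 0.5 µM T4, and 8.2% beside 3.69% at 0.5 µM T20. SKP2, the ubiquitin ligase subunit that marks the inhibitor CDKN1B for destruction, fell in all 4 comparisons. It read 15.07, 15.06 and 14.98 with 5 µM at T4, against 16.14, 16.18 and 16.16 with vehicle (-1.12 ± 0.13, adjusted p = 1.31e-05). At T20 it read 15.52, 15.53 and 15.19 with 5 µM, against 16.18, 16.29 and 16.31 with vehicle (-0.84 ± 0.13, adjusted p = 0.000181). No digoxin array reached a vehicle array of its time.

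CDKN2C, an inhibitor of CDK4 and CDK6, also fell in all 4 comparisons. With 5 µM it read 9.29, 9.11 and 9.06 at T4, against 10.95, 10.90 and 10.51 with vehicle (-1.64 ± 0.23, adjusted p = 0.000106), and 9.37, 9.42 and 8.94 at T20, against 11.04, 10.99 and 11.68 with vehicle (-1.99 ± 0.23, adjusted p = 8.06e-06). Digoxin and vehicle arrays were far apart at both times. At 0.5 µM CDKN2C fell by 1.12 at T4 and by 1.17 at T20, and SKP2 fell by 0.89 and by 0.68. The T4 call of CDKN2C at 0.5 µM was lost without vehicle replicate 1 (-1.04, adjusted p = 0.0574) or without 0.5 µM replicate 2 (-1.06, adjusted p = 0.052). With only the groups compared in the fit, the T20 call of CDKN2C and both calls of SKP2 at 0.5 µM were lost. The 5 µM calls of SKP2 and CDKN2C at both times held under all alternatives run, poly-A scaling included.

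CDKN1A, an inhibitor of CDK2, read 8.51, 8.09 and 8.64 with 5 µM at T4, against 7.56, 7.83 and 7.23 with vehicle, and passed (0.87 ± 0.21, adjusted p = 0.0126). It was above vehicle on all 3 arrays, yet the call was lost without vehicle replicate 3 (0.72), 5 µM replicate 1 (0.82) or 5 µM replicate 3 (0.76), with adjusted p of 0.0549 to 0.0746. Poly-A scaling lost the call too. Untreated T0 arrays read 7.98, 8.23 and 8.58. CDKN1A was itself called lower in T4 vehicle than at T0, a call lost in 13 of 19 alternatives. Its differences were -0.01 at 0.5 µM T4, 0.32 at 0.5 µM T20 and -0.11 at 5 µM T20, and those of CDKN1B ran from -0.25 to 0.10; none of these passed.

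At 5 µM T20 the licensing list held 3 genes that fell, the origin subunits ORC3 (-0.52), ORC4 (-1.05) and ORC5 (-0.90), and 1 that rose, CDC7 (0.78), the kinase that fires licensed origins. ORC5 read 12.27, 12.42 and 12.97 with 5 µM, against 13.57, 13.55 and 13.26 with vehicle, and fell at 0.5 µM too (-0.74, adjusted p = 0.0171). With the mean of probe sets the 5 µM differences of ORC5 (-0.31, adjusted p = 0.0886) and ORC3 (-0.28, adjusted p = 0.0903) did not pass. CDC7 rose at 0.5 µM as well (0.71, adjusted p = 0.038), a call lost in 10 of 19 alternatives, among them leaving out vehicle replicate 1 (0.67) or 3 (0.65) or 0.5 µM replicate 2 (0.54) or 3 (0.77). The T20 vehicle arrays were low for CDC7, at 13.39, 13.69 and 13.34. Untreated arrays read 14.50, 13.84 and 14.02 at T0 and 13.51, 13.60 and 13.85 at T16. With 5 µM at T20 CDC7 read 14.32, 14.02 and 14.43, near the T0 values. The remaining calls at 5 µM T20 were FEN1, a flap nuclease (0.56), and TFDP2, an E2F partner (0.85), which rose, and RPA3, a single-strand binding subunit (-0.93), and SLBP, which binds histone mRNA (-0.74), which fell. TFDP2 was also low in T20 vehicle, at 10.97, 10.91 and 10.50, against 12.36, 11.68 and 12.03 at T0 and 11.90, 11.42 and 11.63 at T16. Under poly-A scaling FEN1 turned to -0.13, and CDC7 (0.08) and TFDP2 (0.18) did not pass. RPA3, TFDP2 and SLBP did not pass by median polish (-0.30, 0.09 and -0.18). CDKN2A, another inhibitor of CDK4 and CDK6, rose at 0.5 µM T20 (1.40, adjusted p = 0.0486) and lost the call in 11 of 19 alternatives, among them leaving out vehicle replicate 1 (1.39) or 3 (1.16) or 0.5 µM replicate 1 (1.45) or 3 (1.00). Single arrays ended several of these 5 µM T20 calls: SLBP without vehicle replicate 3 (-0.58), ORC4 without vehicle replicate 1 (-0.80) or 2 (-1.03) or 5 µM replicate 2 (-0.96), and TFDP2 without vehicle replicate 3 (0.71) or 5 µM replicate 1 (0.80) or 2 (0.83). RPA3 lost its call without any vehicle array (-0.97 to -0.90) or 5 µM replicate 2 (-0.70), ORC3 without any vehicle array (-0.53 to -0.49) or 5 µM replicate 3 (-0.40), and FEN1 without vehicle replicate 1 (0.45) or 2 (0.52) or any 5 µM array (0.48 to 0.64). The 0.5 µM call of ORC5 was lost without vehicle replicate 1 (-0.69) or 2 (-0.70) or 0.5 µM replicate 2 (-0.69).

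Groups without digoxin were compared over time. In untreated cells at T16 against T0, 5 genes fell and none rose, 13.2% of the 38 beside 15.1% of all genes, a share no higher than among genes at large. In T20 vehicle cells against T16 untreated cells, 5 rose and none fell, 13.2% beside 8.31% of all genes. In T4 vehicle cells against T0 untreated cells, 3 rose and 2 fell, 13.2% beside 6.19%, and in T20 vehicle against T4 vehicle, 2 rose and none fell, 5.26% beside 3.51%. By direction, all genes were called higher and lower in 6.71% and 8.37% of cases at T16 against T0, in 4.85% and 3.46% for T20 vehicle against T16, 2.83% and 3.36% in T4 vehicle against T0, and 2.12% and 1.39% in T20 vehicle against T4 vehicle. Groups did not overlap for 13, 14, 12 and 11 of the 38 genes in that order, beside 30.2%, 27.1%, 23.8% and 22.6% of all genes. Median polish gave 10 lower, then 13 higher, then 6 higher and 2 lower, then 5 higher and 3 lower, in the same order, where it called 33.4%, 23.9%, 18.8% and 14.9% of all genes. With poly-A scaling these counts were 10 lower, 21 higher, 3 higher with none lower, and 2 higher, beside 14.7% of all genes lower, 22.4% higher, 2.01% higher and 2.24% higher. Values as deposited gave 3 higher and 1 lower at T4 against T0. Consecutive comparisons share the arrays of the group between them, so their directions are not independent.

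CCND1 read 11.52, 12.07 and 12.44 at T0, 11.65, 12.50 and 12.03 in T4 vehicle, 8.96, 10.76 and 9.59 at T16, and 11.87, 11.85 and 10.32 in T20 vehicle cells. T16 was below all T0 arrays (-2.24 ± 0.48, adjusted p = 0.00301), a call that held under all 19 alternatives. Its rise from T16 overlapped, since 1 T20 array lay under the highest T16 array (1.58 ± 0.48, adjusted p = 0.0458), and was lost in 9 of 19 alternatives, among them leaving out T16 replicate 1 (1.17) or 3 (1.49) or T20 vehicle replicate 1 (1.31) or 2 (1.32).

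CDC25A read 11.43, 11.78 and 11.60 at T0, 11.17, 10.97 and 11.10 in T4 vehicle, 10.29, 10.62 and 10.21 at T16, and 11.65, 11.85 and 11.67 in T20 vehicle cells. It was lower at T16 than at T0 (-1.23 ± 0.15, adjusted p = 1.33e-05) and higher in T20 vehicle than at T16 (1.35 ± 0.15, adjusted p = 1.44e-05), and both calls held under all 19 alternatives. The fall in T4 vehicle against T0 was at the threshold (-0.53 ± 0.15, adjusted p = 0.049) and was lost in 14 of 19 alternatives, among them leaving out T0 replicate 2 or 3 or any T4 vehicle array (-0.57 to -0.43). The rise in T20 vehicle against T4 vehicle (0.64 ± 0.15, adjusted p = 0.0226) was lost in 8, among them leaving out T4 vehicle replicate 2 (0.59) or 3 (0.65) or T20 vehicle replicate 2 (0.58) or 3 (0.67). E2F1 fell in T4 vehicle cells against T0 (-0.77 ± 0.21, adjusted p = 0.0296) and was higher in T20 vehicle than in T4 vehicle (0.93 ± 0.21, adjusted p = 0.0137), calls lost in 8 and 5 alternatives. The first was lost without T0 replicate 2 (-0.68) or 3 (-0.75) or T4 vehicle replicate 1 (-0.79) or 3 (-0.68), and the second without T4 vehicle replicate 3 (0.84) or T20 vehicle replicate 1 (0.79) or 3 (0.83). The calls of CDC25A and E2F1 against T0 or T20 vehicle that involve T4 vehicle rest on arrays that also served as the controls of T4 digoxin. The calls of CDC25A that involve T16 do not use them.

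GINS3 read 12.74, 12.55 and 13.00 at T0, 13.35, 13.46 and 13.44 in T4 vehicle, 12.01, 12.03 and 12.05 at T16, and 13.23, 13.03 and 13.23 in T20 vehicle cells. None of these 4 groups overlapped another: T16 was lowest, then T0, then T20 vehicle, then T4 vehicle. GINS3 rose at T4 (0.65 ± 0.14, adjusted p = 0.00866), fell at T16 against T0 (-0.73 ± 0.14, adjusted p = 0.00155) and rose in T20 vehicle against T16 (1.14 ± 0.14, adjusted p = 4.69e-05). Its 6 probe sets did not all move alike in the fall at T16: 4 were lower and 2 were higher. The T4 call was lost without T0 replicate 2 (0.55, adjusted p = 0.0532).

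E2F8 read 10.23, 8.94 and 9.88 at T0, 11.23, 11.39 and 11.18 in T4 vehicle, 10.61, 10.72 and 9.88 at T16, and 11.68, 10.89 and 10.57 in T20 vehicle cells. T4 vehicle lay above every T0 array (1.58 ± 0.31, adjusted p = 0.00346) under all 19 alternatives. E2F7 read 12.88, 12.63 and 12.94 at T0, 13.39, 13.69 and 13.35 in T4 vehicle, 13.14, 12.92 and 12.92 at T16, and 13.00, 12.74 and 13.26 in T20 vehicle cells. It rose in T4 vehicle against T0 without overlap (0.66 ± 0.16, adjusted p = 0.0155), a call lost without T0 replicate 2 (0.57, adjusted p = 0.0759) or without T4 vehicle replicate 2 (0.56, adjusted p = 0.0878).

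ORC6 read 14.51, 14.46 and 14.62 at T0, 14.43, 14.59 and 14.46 in T4 vehicle, 13.69, 13.97 and 13.62 at T16, and 14.27, 14.39 and 14.36 in T20 vehicle cells. T16 was the low group, below T0 (-0.77 ± 0.16, adjusted p = 0.0021), and T20 vehicle was above it (0.58 ± 0.16, adjusted p = 0.0256), the second call being lost without T16 replicate 1 (0.55) or 3 (0.51) or T20 vehicle replicate 2 (0.56) or 3 (0.57). CCNE2 read 13.90, 14.23 and 14.04 at T0, 14.57, 14.43 and 13.97 in T4 vehicle, 13.30, 13.91 and 13.26 at T16, and 14.00, 14.86 and 14.52 in T20 vehicle cells. Its rise in T20 vehicle against T16 passed (0.97 ± 0.22, adjusted p = 0.00932), with all 17 probe sets higher, and was lost without T16 replicate 3 (0.85, adjusted p = 0.0567) or without T20 vehicle replicate 2 (0.77, adjusted p = 0.0622). CDC6 fell at T16 against T0 (-0.62 ± 0.20, adjusted p = 0.0412) and lost the call in 8 of 19 alternatives, among them leaving out any T0 replicate (-0.67 to -0.56) or T16 replicate 1 (-0.60) or 3 (-0.49). The MCM ring genes gave no call in the 4 time comparisons, with differences of -0.40 to 0.48. Poly-A scaling called MCM3, MCM4, MCM5, MCM6 and MCM7 higher in T20 vehicle against T16 (0.53 to 0.70), where the median of all genes lay at 0.42, and MCM7 lower at T16 against T0 (-0.67, adjusted p = 0.019), where it lay at -0.27. Median polish called MCM4 higher in T20 vehicle against T16 (0.25) and MCM5 higher in T20 vehicle against T4 vehicle (0.27).

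**Figure D4:**
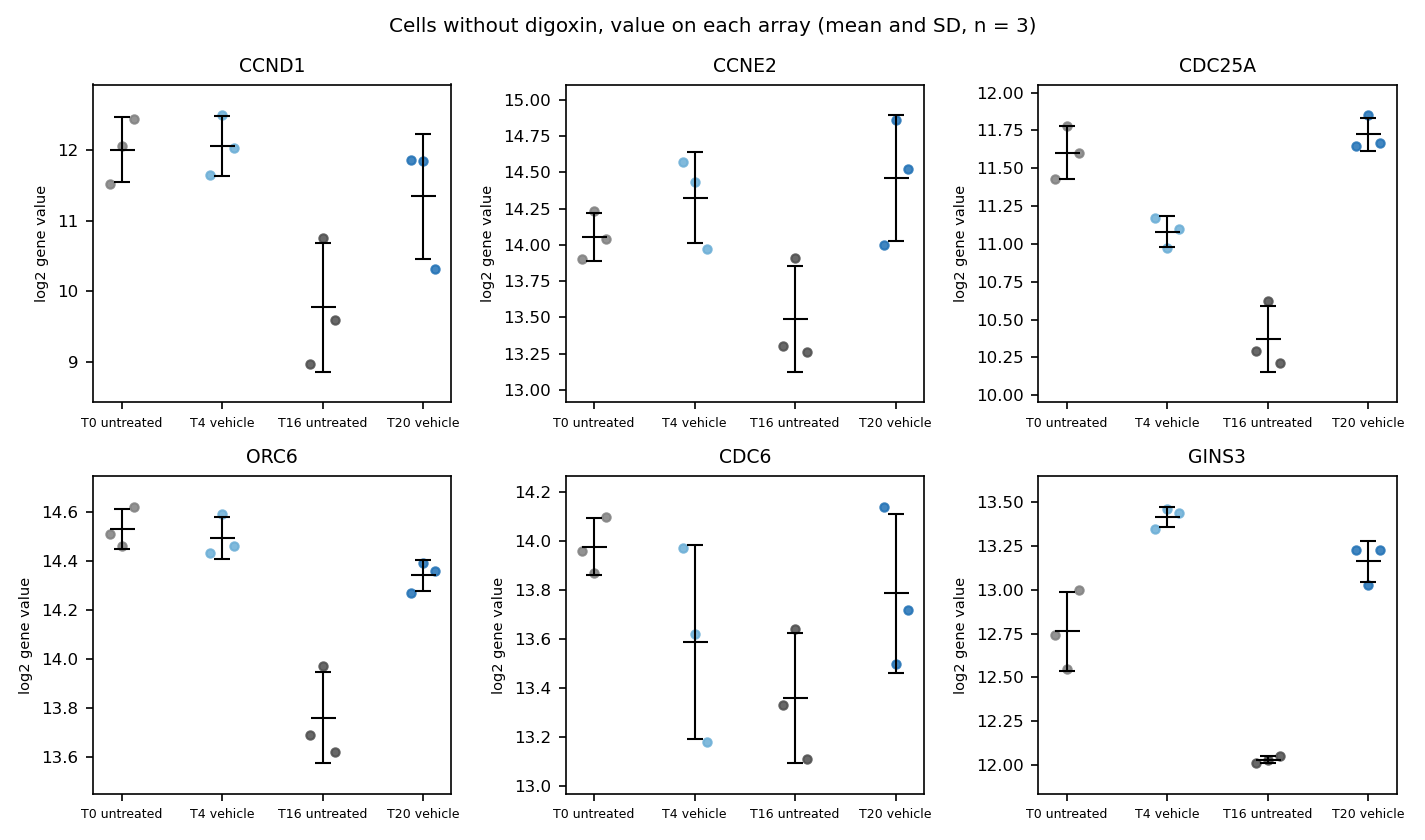
Log2 value of 6 genes in cells without digoxin on each of 3 arrays (points) at T0, T4, T16 and T20, with the mean and SD as bars; T4 and T20 cells had vehicle. T16 is the lowest group for all 6, with CCND1 at 8.96 to 10.76 against 11.52 to 12.44 at T0. The figure leaves out E2F1, E2F7 and E2F8, which were also called over time. Among groups without digoxin, E2F1 was lowest in T4 vehicle (mean 11.49), and E2F7 (12.81) and E2F8 (9.68) were lowest at T0.

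Some inhibitors and partners of the list were called over the same times, at shares near or below those of all genes. In T4 vehicle against T0, 3 of the 61 pathway genes rose and 1 fell, 6.56% beside 6.19% of all genes. For T20 vehicle against T16, 1 rose and 3 fell, 6.56% beside 8.31%. Between T20 vehicle and T4 vehicle 1 fell and none rose, 1.64% beside 3.51%. The 1 that fell was CDC7, a call that held in 17 of 19 alternatives. CDKN1B, an inhibitor of cyclin E with CDK2, was higher at T4 vehicle (13.84) and at T16 (14.16) than at T0 (13.04), by 0.80 ± 0.20 (adjusted p = 0.0186) and 1.12 ± 0.20 (adjusted p = 0.000575). The T4 call was lost without T0 replicate 2 (0.58) or T4 vehicle replicate 1 (0.68). CDKN2B, another CDK4 and CDK6 inhibitor, averaged 10.83 at T16 against 8.29 at T0 (2.54 ± 0.40, adjusted p = 0.000165). SKP2 rose in T4 vehicle (0.82) and at T16 (0.59) against T0, the T16 call being lost with poly-A scaling (0.32). Of the 61 pathway genes, 5 rose and 6 fell at T16 against T0, 18% of the 61 beside 15.1% of all genes, among them E2F6 (-1.19), DCTD (-1.09), RPA2 (-1.18) and GINS4 (-0.75), which fell, and TICRR (0.89), which rose. DCTD did not pass by median polish (-0.30, adjusted p = 0.0507), nor TICRR with poly-A scaling (0.64, adjusted p = 0.0646). CDKN1A passed as lower at T16 (-0.64, adjusted p = 0.0442), but median polish gave 0.04 (adjusted p = 0.875), and the call was lost without T0 replicate 2 (-0.66) or 3 (-0.48) or T16 replicate 2 (-0.47) or 3 (-0.65).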

How the data were processed

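RNA of 24 AC16 samples was hybridized to Affymetrix human gene 2.0 ST arrays. The deposited log2 values were made by the authors with robust multi-array average normalization in the GIANT suite, per the labels' protocols and design text, and limma is named in the submitters' processing notes. No version of either tool is recorded in these sources. Deposited values go up to 19.93, and whether an unrecorded transformation was added was not tested; differences therefore stay in log2 units of the deposit, without conversion to linear folds.

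Of 352859 probe sets, 259224 carried 1 gene symbol and were used; 13116 carried several and 80519 were not listed. Because array medians ranged over 0.13, arrays were quantile normalized, and a gene's value was the median of its probe sets. The annotation's entrez and accession cells were empty, so 1675 older symbols were updated through RefSeq synonyms, a change from the written plan. The update was limited, after a first fit had been seen, to current symbols with no probe sets of their own, which removed probe sets of another gene from RRM2. Fits used limma 3.58.1 in R 4.3.3 (lmFit and eBayes, all 24 arrays, 12 comparisons, two-sided), with Benjamini-Hochberg adjustment over 11071 genes and calls at an adjusted p under 0.05. The number of arrays limits the precision. In data simulated for 5 µM digoxin at T4 over 11071 genes, 50 genes were changed at each of 4 sizes. Of changes of 0.5, 1, 1.5 and 2 log2 units, 6%, 48%, 80% and 94% were recovered, and 10 of 124 calls were false. The real comparison had 881 calls. Because the Benjamini-Hochberg cut-off depends on how many genes change, these shares need not hold for it.

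Genes described in full were those called with digoxin and the 8 with the largest called differences over time; of each pathway list, up to 4 called genes per comparison were named, with CDKN1A and CDKN1B. Array values of CDK6, MCM2, MCM4 and TYMS are given as examples chosen after their values were seen. The members, lists and tests were chosen with earlier results of these data known. Alternatives covered probe set summary, filter, scaling, model and single arrays.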

Additional observations from a re-analysis of the deposited data

How the results depend on the processing

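Over 19 alternatives each, the 29 called differences of the list kept direction and call in 459 of 551 cases, lost the call in 92 and reversed in 0. The counts of genes called, of 38, moved as follows, with some shifts not listed. Median polish gave 8 (0.5 µM T4), 11 (5 µM T4), 4 (0.5 µM T20), 12 (5 µM T20), 1 (dose, T20), 8 (T4 vehicle against T0), 10 (T16 against T0), 13 (T20 vehicle against T16) and 8 (T20 vehicle against T4 vehicle). The mean of probe sets gave 5 (0.5 µM T4), 4 (0.5 µM T20), 10 (5 µM T20), 9 (T16 against T0), 11 (T20 vehicle against T16) and 5 (T20 vehicle against T4 vehicle). Poly-A scaling gave 1 (0.5 µM T20), 25 (5 µM T20), 1 (dose, T20), 1 (5 µM effect, T20 minus T4), 3 (T4 vehicle against T0), 10 (T16 against T0) and 21 (T20 vehicle against T16). Without a filter on low values the counts were 2 (T4 vehicle against T0), 3 (T20 vehicle against T16) and 1 (T20 vehicle against T4 vehicle). That setting also lost the calls of UHRF1 at 5 µM T4 and of CDC6 at T16 against T0. Values as deposited lost CDC6 at T16 against T0 and CCND1 in T20 vehicle against T16. Fitting only the groups compared, with fewer arrays, gave 1 (0.5 µM T4), 1 (T4 vehicle against T0), 2 (T16 against T0), 2 (T20 vehicle against T16) and 0 (T20 vehicle against T4 vehicle). Over called differences of the list and of the pathway genes together, that fit kept 23 of 68. Array weights gave 4 at 0.5 µM T4. The cause of these shifts was not tested. Leaving out 1 array gave 1 to 2 (0.5 µM T4), 4 to 5 (5 µM T4), 0 to 1 (0.5 µM T20), 3 to 6 (5 µM T20), 0 for dose and effect, 1 to 5 (T4 vehicle against T0), 4 to 7 (T16 against T0), 2 to 5 (T20 vehicle against T16) and 0 to 2 (T20 vehicle against T4 vehicle). With the replicate block the counts were 2, 6, 0 and 4 with digoxin and 4, 5, 4 and 2 over time. After each group's mean was taken off every gene tested, same-numbered arrays of the groups compared correlated at -0.14 to 0.11. Whether a replicate number marks a shared culture or batch was not tested. Reversed were FEN1 at 5 µM T20 under poly-A scaling (-0.134, against 0.562) and CDKN1A at T16 against T0 under median polish (0.042, against -0.64). Merging older symbols, chosen after seeing the data, changed no count. With 3 arrays a group, most changes of 0.5 log2 units were missed in the simulation. A difference near 0.5 that did not pass is therefore not shown to be absent.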
